A study of Homo sapiens with 8 samples.

Results

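MGP, the secreted Matrix Gla Protein, was targeted with CRISPR-Cas9 in OVCAR3, an established ovarian carcinoma cell line from ascites, and the transcriptome of adherent (bulk) OVCAR3-MGPKO cells was compared with that of adherent OVCAR3-CTR cells. The comparison uses 2 of the 8 RNA-seq libraries of the series, 1 for each genotype, both from cells at passage 4 grown in serum-containing medium with insulin. The knock-out was made with a pair of guides against exon 1, GFP-positive cells were sorted after transfection and clones were isolated, but whether the sequenced MGPKO and CTR libraries came from 1 clone or from several is not given in the sources used here. The other 2 OVCAR3 libraries, from the same genotypes grown as sphere-derived cells enriched for ovarian cancer stem cells (OCSC) in serum-free medium with EGF and FGF2, are set beside the bulk pair, and the 4 COV318 libraries entered only the size factors. With 1 library for each genotype there is no replicate check and no p-value, and an effect of MGP loss cannot be told apart from a difference between cell populations or between cultures. The 95% intervals given for a ratio are exact Clopper-Pearson intervals that cover counting error only.

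MGP carries gamma-carboxyglutamate residues, binds calcium and bone morphogenetic proteins (BMP) and is best known for keeping arteries and cartilage free of mineral. In ovarian cancer stem cells it has been studied beside Hedgehog signalling, in which ligand-bound patched receptors release smoothened and GLI transcription factors switch on target genes. Other programmes with many members past 2-fold here are the amino acid response, in which kinases that sense missing amino acids or unfolded proteins raise translation of the transcription factor ATF4, and the interferon response, in which STAT and IRF factors switch on antiviral genes and antigen presentation.

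The bulk libraries held 13027676 counts on genes in OVCAR3-CTR and 15836087 in OVCAR3-MGPKO, with size factors of 0.649 and 0.870. The targeted gene had 0 counts in both, so MGP expression cannot check the labels of this pair, and each direction below rests on them. In OCSC MGP had 1 count in CTR and 2 in MGPKO. A loss of MGP RNA is therefore not seen in these libraries. The study itself detected MGP protein in OVCAR3 and checked the knock-out by RT-qPCR, western blot and immunofluorescence. Markers of the labelled lineage were present: PAX8, the Müllerian transcription factor, had 5543 counts in OVCAR3-CTR and 8680 in OVCAR3-MGPKO, and EPCAM, the epithelial adhesion molecule, had 3210 and 3539. Of 12 leukocyte markers 4 were in the table, with 38 counts in all in OVCAR3-CTR and 89 in OVCAR3-MGPKO, and the 12 fibroblast markers in the table held 496 and 952 counts. Of these 2 were assessed, COL1A1 with 125 and 338 counts (log2FC 1.01) and FBLN1 with 317 and 485 (log2FC 0.19), while COL3A1 and PDGFRA were at 0 in both and the others had fewer than 50 in each library, PDGFRB 0 and 13. Their part in the results was not tested. Of the endothelial markers 1 was assessed, VWF with 54 and 130 counts, and of the mesothelial markers 3 were assessed, of which 0 were called. OVCAR3-CTR bulk, the OVCAR3 library with the fewest counts, stood farther from the OCSC libraries than OVCAR3-MGPKO bulk did. It differed by at least 2-fold from CTR OCSC at 20.0% of genes and from MGPKO OCSC at 21.5%. The OVCAR3-MGPKO bulk library differed from them at 15.9% and 11.7%. The bulk libraries differed from each other at 15.3% and the OCSC libraries at 7.90%. The level of a gene or list in the 4 libraries is therefore given beside the main results.

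A gene was called higher or lower when its log2 fold change (log2FC) of normalized count plus 1, OVCAR3-MGPKO over OVCAR3-CTR, was at least 1 in size. This was asked of the 12335 genes with at least 50 counts in at least 1 bulk library, named assessed genes here. Of these, 1107 genes were higher in OVCAR3-MGPKO (8.97%) and 782 were lower (6.34%). The median log2FC was -0.01 and the interquartile range ran from -0.39 to 0.39. Each list's bulk calls below are to be set beside these shares. In OCSC, by the same rule, 3.08% were higher and 3.30% lower, over the 11998 genes assessed in both cultures. The counting interval excluded no change for all 1889 called genes, which the minimum of 50 counts and the 2-fold threshold nearly ensure. It lay wholly beyond 2-fold for 602 of the higher and 485 of the lower genes. A larger share of expressing cells and more RNA per cell cannot be told apart in such a library. At least 4-fold changes were found for 270 higher and 142 lower genes. Called genes were expressed below the rest, with a median normalized count in the higher library of 214 for the higher and 575 for the lower genes, against 750 for all assessed genes. Of the called genes 58.6% were higher, and with CPM (counts scaled to the library total) plus 1, which moved the median of all genes to 0.12, 68.9% were higher. The 1 added to CPM weighs more than the 1 added to normalized counts, and library totals with a pseudocount that weighs as before, an alternative chosen after seeing the data, gave 1378 higher and 603 lower genes, 69.6% of them higher.

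**Figure D1:**
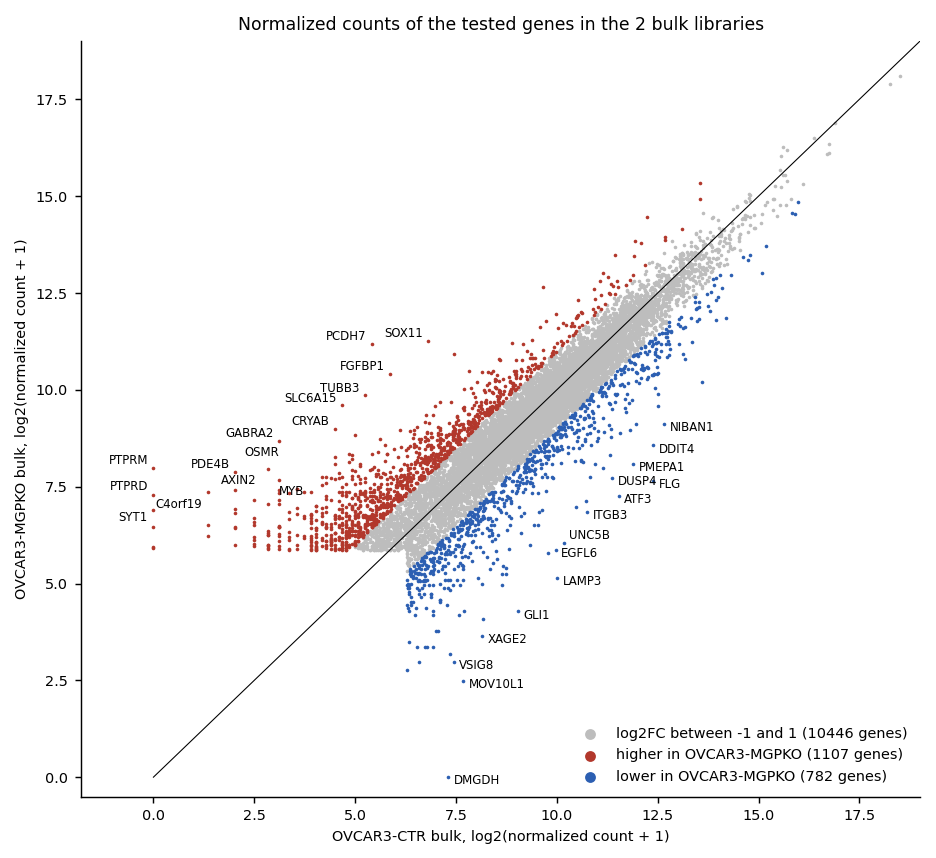
Normalized counts of the 12335 assessed genes in OVCAR3-CTR bulk (horizontal axis) and OVCAR3-MGPKO bulk (vertical axis), both as log2(normalized count + 1). Red points are the 1107 genes higher in OVCAR3-MGPKO and blue points the 782 lower ones, the line marks equal values, and the 30 named genes are those whose counting interval lies farthest from no change.

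Genes of the amino acid response and its transcription factor ATF4 had the lowest median of all lists. Of 39 assessed members 33 were lower in OVCAR3-MGPKO and 0 were higher, with a median log2FC of -1.69, against 6.34% of all assessed genes lower and a median of -0.01. DDIT4, an inhibitor of mTORC1, had 3487 counts in OVCAR3-CTR and 329 in OVCAR3-MGPKO, a 14.2-fold difference (log2FC -3.83). TRIB3, a pseudokinase that feeds back on ATF4, went from 8063 to 1027 counts (log2FC -3.40, -3.49 to -3.30). Both genes were more than 10-fold lower in OVCAR3-MGPKO. CTH, which makes cysteine from cystathionine, had 925 and 109 counts (log2FC -3.50), and GDF15, a secreted stress cytokine, 1093 and 120 (log2FC -3.60). ATF4 mRNA itself had 7637 and 4320 counts, a log2FC of -1.25 (-1.30 to -1.19), a smaller difference than those of DDIT4, TRIB3, CTH and GDF15.

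The lower members covered each branch of the response. Among transcription factors beside ATF4, DDIT3 (CHOP) had 2163 counts in OVCAR3-CTR and 603 in OVCAR3-MGPKO (log2FC -2.27), ATF5 had 515 and 103 (log2FC -2.74) and CEBPG had 5841 and 1680 (log2FC -2.22). Among amino acid transporters, SLC7A5, the light chain of the LAT1 leucine carrier, had 22433 and 7180 counts (log2FC -2.07, -2.11 to -2.03), and its heavy chain SLC3A2 had 10307 and 4433 (log2FC -1.64). SLC7A11, the cystine carrier, had a log2FC of -1.41 and SLC1A5, a glutamine carrier, one of -1.38. Serine and one-carbon enzymes were lower too, with MTHFD2 at 10309 and 3095 counts (log2FC -2.16), SHMT2 at 8957 and 3966 (log2FC -1.60) and PSAT1 at 6023 and 2755 (log2FC -1.55). PHGDH, the entry enzyme of serine synthesis, had a log2FC of -0.48 and PSPH of -0.34, so these members did not reach the threshold. PPP1R15A (GADD34), which restarts translation, had 3617 and 918 counts (log2FC -2.40), and CHAC1, which degrades glutathione, had 606 and 187 (log2FC -2.12). VEGFA, the angiogenic ligand, went from 3794 to 665 counts (log2FC -2.93). SESN3 was the member with a positive log2FC, at 0.86.

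The level of this list was high in OVCAR3-CTR bulk rather than low in OVCAR3-MGPKO bulk when the OCSC libraries are taken as the reference. Relative to the mean of the OCSC libraries, the median member was at 2.13 (log2) in OVCAR3-CTR bulk and at 0.33 in OVCAR3-MGPKO bulk. Summed over the 39 members, the normalized count was 256919 in CTR bulk, 85594 in MGPKO bulk, 77740 in CTR OCSC and 64736 in MGPKO OCSC. TRIB3, for example, had normalized counts of 12433, 1180, 484 and 612 in the same order, and DDIT4 had 5377, 378, 280 and 245. In OCSC the median log2FC of MGPKO over CTR was -0.23 over the 35 members assessed there, with 3 members lower and 0 higher. The culture and the library cannot be told apart in OVCAR3-CTR bulk.

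**Figure D2:**
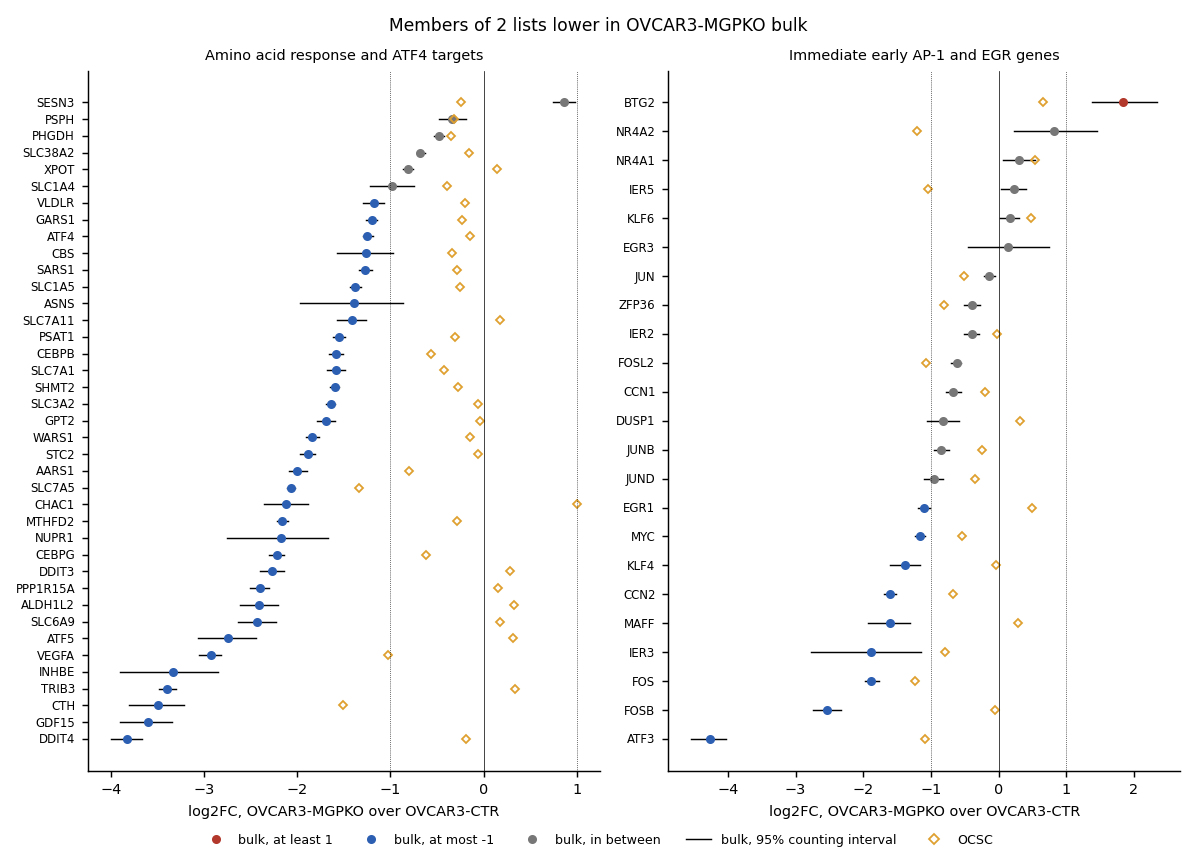
The log2FC of OVCAR3-MGPKO over OVCAR3-CTR (horizontal axis) for each assessed member of the amino acid response list (left) and of the immediate early list (right); filled circles are bulk with their 95% counting interval, open diamonds OCSC. In the left panel 33 of 39 circles lie at or below -1, while most diamonds lie close to 0.

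ATF4 binds with C/EBP proteins at an element read here as TGATGNAA on either strand, and the upstream 250 bases of each annotated start were searched for it in RefSeq's promoters (GRCh38.p14). Among the 9616 assessed genes with a listed promoter, 2.35% held the letters, of the 554 called lower among them 5.60%, and of the 31 assessed list members with a promoter 6, or 19.4%. These 6 were CEBPG, CHAC1, AARS1, ASNS, SLC1A5 and GARS1, and each of them was called lower. Of the 31 members 26 were called lower, and 23.1% of these held the letters. Of the 5 others 0 did, too few to tell the groups apart. In OCSC the log2FC of ASNS was 1.32 and that of CHAC1 was also positive. CEBPG, AARS1, SLC1A5 and GARS1 had OCSC log2FC of -0.62, -0.80, -0.25 and -0.23. A match describes the letters and not a bound site. The promoters of 4 of them are printed because they carry the element in genes of different roles, namely glutathione breakdown (CHAC1), alanyl-tRNA charging (AARS1), glutamine uptake (SLC1A5) and asparagine synthesis (ASNS), with the element in capitals, 5′ to 3′ on the gene's strand and ending at the base before the start.
CHAC1, chr15:40953221-40953470, plus strand: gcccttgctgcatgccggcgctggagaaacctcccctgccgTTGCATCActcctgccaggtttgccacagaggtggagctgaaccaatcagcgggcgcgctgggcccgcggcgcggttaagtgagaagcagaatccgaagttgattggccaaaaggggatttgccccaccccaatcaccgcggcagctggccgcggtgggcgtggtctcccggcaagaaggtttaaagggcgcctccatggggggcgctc
AARS1, chr16:70289507-70289756, minus strand: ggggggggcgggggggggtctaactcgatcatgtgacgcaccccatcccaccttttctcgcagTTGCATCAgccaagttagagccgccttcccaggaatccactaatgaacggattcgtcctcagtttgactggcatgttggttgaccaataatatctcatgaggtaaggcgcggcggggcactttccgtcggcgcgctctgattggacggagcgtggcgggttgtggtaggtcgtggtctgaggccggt
SLC1A5, chr19:46784815-46784964, minus strand: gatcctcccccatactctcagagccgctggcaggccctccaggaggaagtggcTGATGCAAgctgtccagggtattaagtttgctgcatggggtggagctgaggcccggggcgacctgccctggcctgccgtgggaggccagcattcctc
ASNS, chr7:97872409-97872558, minus strand: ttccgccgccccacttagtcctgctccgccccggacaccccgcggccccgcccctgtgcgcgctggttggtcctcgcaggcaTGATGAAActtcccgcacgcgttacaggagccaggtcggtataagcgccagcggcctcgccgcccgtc
The element began 209 bases upstream of the start in CHAC1, 187 in AARS1, 97 in SLC1A5 and 68 in ASNS. AARS1 had 3520 counts in OVCAR3-CTR and 1184 in OVCAR3-MGPKO, a 3.99-fold difference, SLC1A5 had 7603 and 3932, and ASNS had 87 and 44, few enough that its interval ran from -1.97 to -0.87.

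Immediate early genes, which answer growth factors and stress within minutes, had the next lowest median. Of 23 assessed members 9 were lower, 1 was higher and the median log2FC was -0.82 (OCSC -0.30). ATF3, a stress-induced AP-1 partner that is also an ATF4 target, had 1926 counts in OVCAR3-CTR and 133 in OVCAR3-MGPKO, a 19.4-fold difference (log2FC -4.27, -4.54 to -4.03). FOSB had 1044 and 242 counts (log2FC -2.53), FOS had 2736 and 1000 (log2FC -1.88) and EGR1 had 3047 and 1903 (log2FC -1.10). JUN was near equal at a log2FC of -0.14. BTG2, an antiproliferative p53 and stress target, was the higher member with 45 and 217 counts (log2FC 1.83). DUSP4, a phosphatase induced by ERK that dampens it, was also lower, from 1716 to 183 counts (log2FC -3.65). The list was likewise high in OVCAR3-CTR bulk, where its median member stood at 1.09 over the OCSC mean against 0.26 in OVCAR3-MGPKO bulk.

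Interferon-stimulated genes had the highest median of all lists. Of 36 assessed members 24 were higher in OVCAR3-MGPKO, 1 was lower and the median log2FC was 1.37, against 8.97% of all assessed genes higher. IFI44L, an antiviral response gene, had 7 counts in OVCAR3-CTR and 151 in OVCAR3-MGPKO (log2FC 3.89, 2.93 to 5.35). SAMD9, an antiviral factor that limits poxvirus replication, went from 20 to 394 counts (log2FC 3.83, 3.23 to 4.60). OAS3 and OAS1, enzymes that make 2′-5′ oligoadenylate from double-stranded RNA, had 30 and 290 counts and 15 and 120 counts in the same order (log2FC 2.82 and 2.53). GBP2, a guanylate-binding protein, had 82 and 662 counts (log2FC 2.58), and GBP3 had 14 and 266 (log2FC 3.76), although the guanylate-binding genes are close copies between which counting can split reads. The RNA sensors DDX58 (RIG-I) and IFIH1 (MDA5) had 234 and 915 counts and 49 and 152 counts (log2FC 1.54 and 1.20). PARP14 and its partner PARP9, both better covered, had a log2FC of 1.41 (1.31 to 1.51) and 1.43. The ubiquitin-like modifier ISG15 had 95 and 318 counts (log2FC 1.31).

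Not every member was higher by 2-fold. STAT2, which carries the interferon signal to the nucleus, had 1391 and 2242 counts, a log2FC of 0.26. EPSTI1 was lower, with 429 counts in OVCAR3-CTR and 169 in OVCAR3-MGPKO (log2FC -1.76, -2.03 to -1.51). IFNB1, the ligand interferon beta, had 0 counts in all 4 OVCAR3 libraries. The list was low in OVCAR3-CTR bulk, where its median member was at -1.07 relative to the OCSC mean, against 0.33 in OVCAR3-MGPKO bulk. SAMD9 had normalized counts of 30.8, 453, 280 and 305 in CTR bulk, MGPKO bulk, CTR OCSC and MGPKO OCSC, and OAS3 had 46.3, 333, 334 and 279. In OCSC 6 of the 36 members were higher in MGPKO and 0 were lower (median log2FC 0.29), IFI44L among them with 27 and 91 counts (log2FC 1.62).

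Antigen presentation genes had the next highest median among lists with at least 6 assessed members. Of 11 assessed members 6 were higher, 0 were lower and the median log2FC was 1.19 (OCSC 0.37). B2M, the light chain of class I molecules, had 91 counts in OVCAR3-CTR and 298 in OVCAR3-MGPKO (log2FC 1.28), and CD74, the class II invariant chain, had 314 and 962 (log2FC 1.19). NLRC5, the transactivator of class I genes, had 19 and 111 counts (log2FC 2.09), and ERAP2, a peptide-trimming protease, had 27 and 119 (log2FC 1.69). HLA-C had 326 and 476 counts (log2FC 0.12), but reads shared among HLA genes make their split uncertain.

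**Figure D3:**
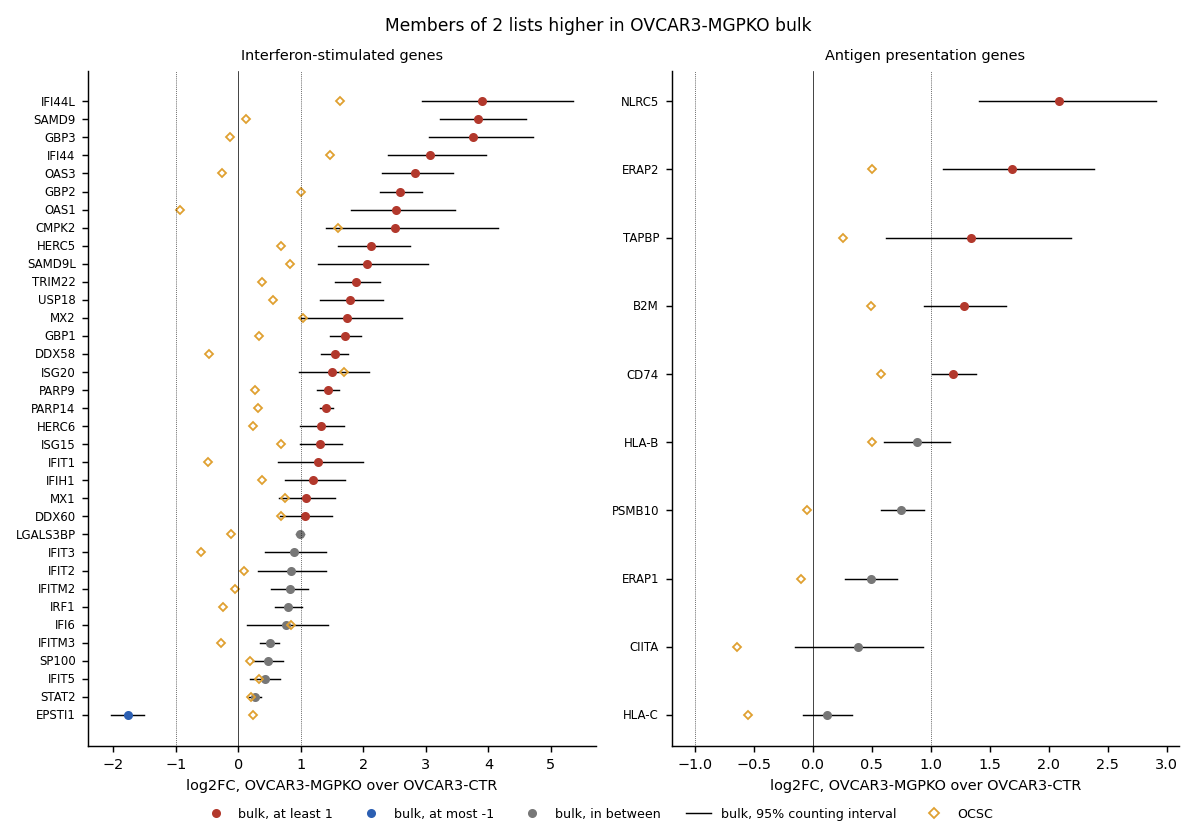
The log2FC of OVCAR3-MGPKO over OVCAR3-CTR (horizontal axis) for assessed members of the interferon-stimulated list (left) and of the antigen presentation list (right), with filled circles for bulk, bars for the 95% counting interval and open diamonds for OCSC. Most circles in the left panel lie at or above 1, EPSTI1 lies below -1, and 1 member of each list is not drawn.

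IRF factors and STAT complexes bind an interferon-stimulated response element, read here as GAAA, 2 bases of any kind and again GAAA, on either strand. It occurred upstream of 3.16% of the 9616 assessed genes with a listed promoter, where a match in any listed promoter of a gene counted. Of the 825 called higher among them 5.58% held it, and of the 28 list members with a promoter 71.4%. Of the 46 genes called higher that held it, 14 were list members. The share was 73.7% among the 19 called members and 66.7% among the 9 others, so holding the letters did not separate members that were higher from those that were not. Shown are the promoters of 4 of the genes with the largest log2FC that hold it, of ISG15, and of EPSTI1, the lower member, with each match in capitals.
IFI44L, chr1:78620198-78620447, plus strand: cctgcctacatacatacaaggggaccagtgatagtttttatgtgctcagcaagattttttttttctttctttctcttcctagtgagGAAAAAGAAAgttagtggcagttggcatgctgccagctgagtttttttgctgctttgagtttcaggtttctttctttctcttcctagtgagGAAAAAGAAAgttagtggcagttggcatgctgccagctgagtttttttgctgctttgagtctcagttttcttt
SAMD9, chr7:93117980-93118129, minus strand: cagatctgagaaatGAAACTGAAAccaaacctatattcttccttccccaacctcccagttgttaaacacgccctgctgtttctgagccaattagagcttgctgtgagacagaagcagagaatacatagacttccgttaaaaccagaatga
OAS3, chr12:112938324-112938473, plus strand: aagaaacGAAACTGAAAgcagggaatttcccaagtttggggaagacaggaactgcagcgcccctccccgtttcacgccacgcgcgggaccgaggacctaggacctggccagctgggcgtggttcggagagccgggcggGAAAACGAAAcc
HERC5, chr4:88456969-88457118, plus strand: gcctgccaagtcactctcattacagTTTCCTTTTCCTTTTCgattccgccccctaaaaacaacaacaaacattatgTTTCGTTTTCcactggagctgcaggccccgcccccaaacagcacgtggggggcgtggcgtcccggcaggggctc
ISG15, chr1:1013347-1013496, plus strand: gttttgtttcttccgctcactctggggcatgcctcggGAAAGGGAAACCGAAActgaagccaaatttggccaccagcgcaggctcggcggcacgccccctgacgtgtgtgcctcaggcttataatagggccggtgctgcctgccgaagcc
EPSTI1, chr13:42992242-42992391, minus strand: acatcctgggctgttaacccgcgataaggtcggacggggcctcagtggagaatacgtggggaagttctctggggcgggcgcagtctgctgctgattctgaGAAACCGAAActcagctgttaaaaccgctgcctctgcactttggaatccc
IFI44L and OAS3 held 2 matches each, and in HERC5 (31 and 185 counts, log2FC 2.13) and ISG15 neighbouring matches overlapped. EPSTI1 held the same letters, starting 50 bases upstream of its start, and was lower.

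Of the 14 assessed genes of the Hedgehog pathway 4 were higher, 1 was lower and the median log2FC was 0.19. The lower gene was GLI1, the effector that is itself a target of the pathway, with 338 counts in OVCAR3-CTR and 16 in OVCAR3-MGPKO (log2FC -4.75, -5.65 to -4.10). The higher genes were the co-receptors CDON, from 34 to 251 counts (log2FC 2.44), and BOC, from 424 to 1681 (log2FC 1.56), the GLI inhibitor SUFU, from 111 to 381 (log2FC 1.35), and GLI3, which acts largely as a repressor, from 98 to 397 (log2FC 1.59). PTCH1, the receptor and the other usual target gene, had 137 and 194 counts, a log2FC of 0.08 whose interval (-0.25 to 0.40) includes no change and leaves out a 2-fold difference. GLI2 had a log2FC of 0.04 (-0.33 to 0.42) and the transducer SMO one of 0.28. HHIP, a further target gene, had 4 counts in each library, at which no difference was detectable. In OCSC GLI1 had 29 and 3 counts (log2FC -2.95), while CDON, BOC, SUFU and GLI3 had log2FC of 0.37, -0.65, -0.18 and 0.25.

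Both genes that adjoin GLI1 on chromosome 12 were lower too. GLI1 lies at chr12:57459785-57472268 in hg38 on the plus strand. INHBE, an activin subunit gene and ATF4 target just upstream on the same strand, had 275 counts in OVCAR3-CTR and 36 in OVCAR3-MGPKO (log2FC -3.33, -3.90 to -2.85). ARHGAP9, a GTPase-activating protein gene that runs on the opposite strand and ends 1 base beyond the end of GLI1 in RefSeq, had 186 and 14 counts (log2FC -4.07, -5.06 to -3.37). MARS1, the next gene, was near equal at 5890 and 6622 counts (log2FC -0.26), whereas DDIT3, beyond it, had a log2FC of -2.27. NXPH4 and SHMT2, farther upstream, had log2FC of -1.92 and -1.60. In OCSC the counts were 5 and 7 at INHBE and 15 and 6 at ARHGAP9 beside the 29 and 3 at GLI1. Whether reads of INHBE or ARHGAP9 transcripts entered the GLI1 count was not tested, and whether the counting used the strand is not given in the sources used here.

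In the BMP and TGF-beta list, 7 of 30 assessed genes were higher and 6 were lower (median log2FC -0.07, or 0.07 with CPM, and OCSC -0.43). The BMP target genes ID1 and ID2 were higher, ID1 from 1475 to 7232 counts (log2FC 1.87) and ID2 from 146 to 1249 (log2FC 2.67), and so were the ligand BMP4, from 179 to 589 (log2FC 1.29), and SMAD9, from 11 to 83 (log2FC 2.42). ID4 and SMAD6, also on the list, were not called (log2FC 0.17 and 0.22). The secreted BMP antagonists went apart, since NOG was lower, from 1043 to 452 counts (log2FC -1.63), and CHRDL1 was higher, from 53 to 429 (log2FC 2.58). The TGF-beta receptor TGFBR2 and the inhibitory SMAD7 had log2FC of -1.13 and -1.19, and INHBB, an activin subunit, had 3803 and 1207 counts (log2FC -2.08). PMEPA1, a TGF-beta target that limits SMAD signalling, had 2462 and 235 counts (log2FC -3.81). In OCSC ID1 was lower in MGPKO, with a log2FC of -1.24, while INHBB, SMAD7 and PMEPA1 were lower in both cultures (OCSC log2FC -2.12, -1.73 and -2.33).

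In the WNT list 5 of 32 assessed genes were higher and 3 were lower (median log2FC 0.43, OCSC -0.35). AXIN2, the feedback target that marks beta-catenin activity, had 2 counts in OVCAR3-CTR and 149 in OVCAR3-MGPKO, a ratio of 55.5 whose log2 interval runs from 3.92 to 8.85, and in OCSC it had 27 and 727. LGR5, the R-spondin receptor and a stem cell marker, had 38 and 185 counts (log2FC 1.84), and the receptors FZD2 and FZD4 had log2FC of 1.23 and 1.45. Among the ligands WNT11 was lower, from 417 to 55 counts (log2FC -3.33), WNT4 was lower, from 52 to 9 (log2FC -2.84), and WNT10B was higher, from 15 to 79 (log2FC 1.93). LEF1 and RNF43, further targets, had log2FC of 0.21 and 0.71. In the Notch list 3 of 18 assessed genes were lower and 1 was higher (median log2FC -0.46), with the target HES1 at 3146 and 1084 counts (log2FC -1.96) and the ligand JAG1 at 16345 and 9587 (log2FC -1.19).

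Among IL6 family receptors and JAK-STAT genes 4 of 18 assessed were higher and 2 were lower. OSMR, the oncostatin M receptor, had 4 counts in OVCAR3-CTR and 217 in OVCAR3-MGPKO (log2FC 5.13, 3.96 to 7.23) and LIFR had 156 and 450 (log2FC 1.10), whereas the shared subunit IL6ST had 1953 and 1291 (log2FC -1.02) and JAK1 had 3840 and 2418 (log2FC -1.09). The last 2 were under the threshold with CPM, which left 0 members lower. In the ERBB and FGF list 6 of 31 were higher and 4 were lower. FGFBP1, which releases FGF from the matrix, had 37 and 1189 counts (log2FC 4.56), AREG, an EGFR ligand, had 134 and 16 (log2FC -3.42) and EGFR itself had 3417 and 1960 (log2FC -1.23). The YAP and TEAD target list split, with CCN2 (3686 and 1630 counts, log2FC -1.60), AJUBA and AMOTL2 lower and ANKRD1 (25 and 113, log2FC 1.73) higher, for 4 of 19 lower and 3 higher.

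**Figure D4:**
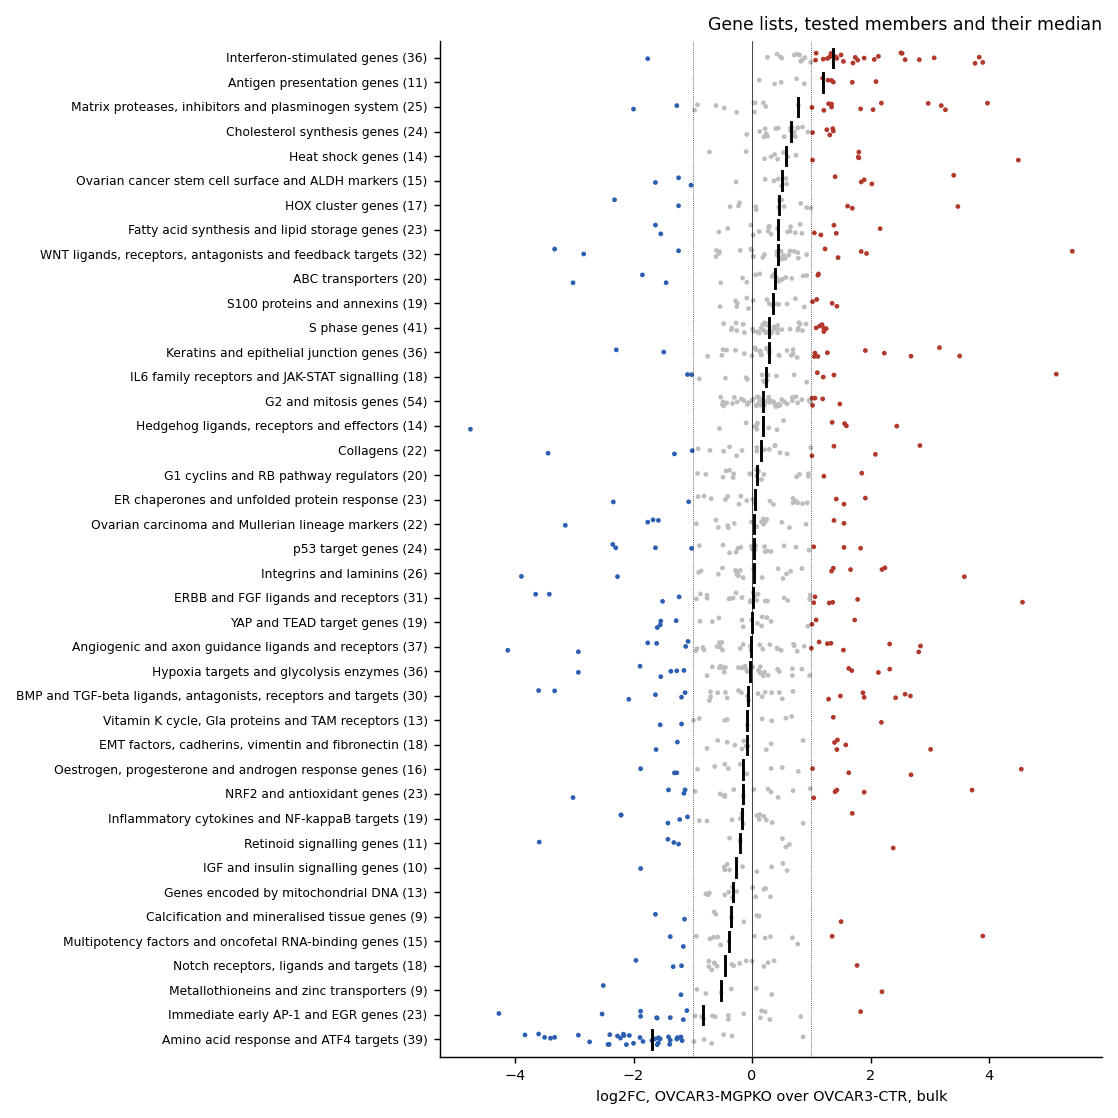
The log2FC of OVCAR3-MGPKO over OVCAR3-CTR in bulk (horizontal axis) for the assessed members of each gene list with at least 6 of them, ordered by the list's median (black bar), with the number of assessed members in parentheses. Red points are called higher and blue points lower; the medians run from -1.69 for the amino acid response to 1.37 for interferon-stimulated genes.

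The genes by which the study followed stemness and epithelial-mesenchymal transition (EMT) did not move as a group in bulk. The study measured them by qRT-PCR in second-generation spheres, whereas the bulk values are RNA-seq of adherent cells. Its multipotency gene NANOG was not in the table. In OCSC KLF4 and SOX2 had log2FC of -0.04 and -0.10, and the EMT genes CDH2 and FN1 of 0.17 and 0.03. The multipotency factor KLF4 was lower, with 496 counts in OVCAR3-CTR and 255 in OVCAR3-MGPKO (log2FC -1.38, -1.61 to -1.16), and SOX2, with 1165 and 954, had a log2FC of -0.71. POU5F1 had 1 and 2 counts, so it could not be judged at this depth. Over the multipotency list 2 of 15 assessed genes were higher and 2 were lower, LIN28B, an RNA-binding repressor of let-7, being higher with 7 and 151 counts (log2FC 3.89) and 2.96 in OCSC. Among surface and ALDH markers of ovarian cancer stem cells 5 of 15 were higher and 3 were lower, or 1 lower with CPM. CD44, the hyaluronan receptor, had 71 and 253 counts (log2FC 1.40), KIT had 10 and 57 (log2FC 2.02) and NES (nestin) had 4 and 65 (log2FC 3.40), while NT5E (CD73) had 59 and 25 (log2FC -1.63) and ALDH1A1 had 432 and 864 (log2FC 0.57). ALDH1A2 and ALDH3B1 were lower, with log2FC of -1.24 and -1.03. The list's median log2FC was 0.50 in bulk and -0.27 in OCSC, where 0 of 14 members were higher and 1 was lower.

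Of the EMT list 5 of 18 assessed genes were higher and 2 were lower (median log2FC -0.09, or 0.05 with CPM). VIM (vimentin) had 23 counts in OVCAR3-CTR and 94 in OVCAR3-MGPKO (log2FC 1.58) and 319 and 2858 in OCSC (log2FC 3.06). TWIST1 had 44 and 162 counts (log2FC 1.44, 0.97 to 1.97). E-cadherin (CDH1) had 3107 and 2468 (log2FC -0.76) and N-cadherin (CDH2) 706 and 903 (log2FC -0.07, -0.21 to 0.07), whereas FN1 had 295 in each (log2FC -0.42) and SNAI1 81 and 136 (log2FC 0.32, -0.08 to 0.74). SNAI2 and ZEB1 had 0 counts in both bulk libraries. CDH6, K-cadherin of the Müllerian and renal epithelium, had 7746 and 27194 counts (log2FC 1.39), and the splicing factor ESRP1, which keeps epithelial isoforms, had 3673 and 2058 (log2FC -1.26). The other called members were OVOL1 and S100A4, which were higher (log2FC 3.01 and 1.43), and FOXC1, which was lower (log2FC -1.62). EPCAM differed little, at a log2FC of -0.28.

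Keratins and junction genes were higher more often than lower, 9 against 2 of 36 assessed (median log2FC 0.28). KRT5, a basal keratin, had 3141 counts in OVCAR3-CTR and 19732 in OVCAR3-MGPKO (log2FC 2.23, 2.17 to 2.28), and KRT13, KRT16 and KRT81 had log2FC of 2.68, 1.91 and 3.50 from 12, 28 and 18 counts in OVCAR3-CTR. Some keratin genes are close copies of each other, so reads could be split among them. CLDN6, an oncofetal claudin, had 4 and 55 counts (log2FC 3.16) and CLDN16 had 911 and 250 (log2FC -2.29). FLG (filaggrin), of the cornified layer, was lower, from 3477 to 174 counts, a 26.8-fold difference (log2FC -4.74, -4.97 to -4.53). Among ovarian carcinoma and Müllerian markers 2 of 22 were higher and 4 were lower, with LCN2 (lipocalin 2) at 1460 and 220 counts (log2FC -3.15), VTCN1 (B7-H4) at 729 and 307 (log2FC -1.67) and the kallikrein KLK10 at 232 and 913 (log2FC 1.55).

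Matrix proteases and their inhibitors had the next highest median, 0.78, among lists with at least 6 assessed members, with 12 of 25 assessed genes higher and 2 lower. The median was 0.40 with no count minimum and 0.23 with one of 200 counts. The inhibitors TIMP1 and TIMP2 had 14 and 178 counts and 552 and 3049 counts (log2FC 3.19 and 2.04), SERPINB5 (maspin) had 15 and 200 (log2FC 3.26) and SERPINE2 had 74 and 252 (log2FC 1.34). Proteases were higher as well, MMP7 from 2 to 55 counts (log2FC 3.97), MMP2 from 18 to 88 (log2FC 1.83) and the plasminogen activators PLAT and PLAU from 8 to 90 and from 236 to 639 (log2FC 2.97 and 1.01). MMP17 was lower, from 136 to 45 counts, a 4.06-fold difference. In OCSC the list's median log2FC was -0.49, with 6 of 24 members lower and 3 higher, so the direction was not shared between the cultures. Of integrins and laminins 6 of 26 were higher and 2 were lower. ITGB3, the vitronectin receptor beta chain, had 1115 and 100 counts (log2FC -3.89, -4.21 to -3.61) and ITGA9 had 1493 and 415 (log2FC -2.27), and both were lower in OCSC too (log2FC -1.60 and -2.11). The laminin chains LAMA4, LAMA1, LAMA3 and LAMB1 had log2FC of 3.58, 2.24, 1.66 and 1.37.

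Of 9 assessed calcification genes 1 was higher and 2 were lower, beside 15.3% of all assessed genes called in either direction, with ALPL, the phosphatase that removes pyrophosphate, at 178 and 108 counts (log2FC -1.14) and NT5E lower. In the vitamin K and Gla protein list 2 of 13 were higher and 2 were lower. GGCX, the carboxylase that matures MGP, had 1566 and 1987 counts (log2FC -0.08), and PROS1 (protein S) had 12 and 76 (log2FC 2.18). The list's receptor genes went apart, TYRO3 from 101 to 351 counts (log2FC 1.37) and AXL from 156 to 71 (log2FC -1.55). MERTK, a further receptor gene, was not called (log2FC -0.42).

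Among S phase genes 6 of 41 were higher and 0 were lower (median log2FC 0.29), beside 8.97% of all assessed genes higher, among them RRM2 with 1662 and 4915 counts (log2FC 1.14) and TYMS with a log2FC of 1.08. Among G2 and mitosis genes 5 of 54 were higher and 0 were lower (median log2FC 0.19), a share near that of all genes. Cholesterol synthesis genes had a positive log2FC in 23 of 24 members and a median of 0.66, yet 5 passed the threshold, HMGCS1, IDI1, MSMO1, ACAT2 and STARD4 (log2FC 1.02 to 1.37). Relative to the OCSC mean the median cholesterol gene was at -1.34 in OVCAR3-CTR bulk and -0.67 in OVCAR3-MGPKO bulk. In OCSC the medians of the S phase, G2 and mitosis and cholesterol lists were -0.33, -0.35 and 0.02.

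Of 14 assessed heat shock genes 5 were higher and 0 were lower (median log2FC 0.57). HSPA8, the constitutive HSC70 chaperone, had 7762 counts in OVCAR3-CTR and 35962 in OVCAR3-MGPKO (log2FC 1.79, 1.75 to 1.82), HSPB1 (HSP27) had 949 and 4430 (log2FC 1.80) and CRYAB, a small heat shock protein, had 14 and 441 (log2FC 4.49). The abundant chaperones HSP90AB1, HSP90AA1 and HSPD1 were not called, with log2FC of 0.21, 0.60 and -0.72. Of 23 assessed endoplasmic reticulum chaperone and unfolded protein response genes 3 were higher and 2 were lower (median log2FC 0.05, OCSC -0.30). CALR (calreticulin) had 2551 and 12833 counts (log2FC 1.91) and HSP90B1 (GRP94) 8243 and 21035, under the threshold (log2FC 0.93). The unfolded protein sensors ERN1 (IRE1) and ATF6 were lower (554 and 146 counts, log2FC -2.34, and log2FC -1.07). Antioxidant genes split, 5 higher and 4 lower of 23: FTH1, the iron-storing ferritin heavy chain, had 42105 and 25486 counts (log2FC -1.15), GCLC had a log2FC of -1.13 and the transporter ABCC3 one of -3.02, while GSTP1 had 945 and 3349 counts (log2FC 1.40).

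Chemokines of the CXCR2 axis were among the lower genes of the inflammatory list, in which 5 of 19 were lower (3 with CPM) and 1 was higher. CXCL1 had 1623 counts in OVCAR3-CTR and 471 in OVCAR3-MGPKO and CXCL3 had 75 and 21, both a log2FC of -2.21, whereas the cytokine IL18 had 120 and 521 (log2FC 1.69). Hypoxia and glycolysis genes split, with 4 of 36 higher and 6 lower. EGLN3, an oxygen-sensing hydroxylase, had 135 and 907 counts (log2FC 2.32) and STC2 (stanniocalcin 2) 4589 and 1659 (log2FC -1.89), and the glucose carrier SLC2A1 had a log2FC of -1.37. Of 24 p53 targets 3 were higher and 4 were lower, the lower ones including BBC3 (PUMA), from 357 to 93 counts (log2FC -2.35), and GADD45A, from 1316 to 358 (log2FC -2.30), both also known to answer stress without p53, while CDKN1A (p21) had 133 and 127 (log2FC -0.49).

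Among angiogenic and axon guidance genes 8 of 37 were higher and 6 were lower, and 12 were lower in OCSC. Of all assessed genes 8.97% were higher and 6.34% lower in bulk, and 3.30% were lower in OCSC. PDGFA, PDGFB and the co-receptor NRP2 were lower in both cultures (bulk log2FC -1.61, -1.08 and -1.12; OCSC -2.05, -1.19 and -2.71), and the guidance receptor EPHA3 was higher in both, with 16 and 156 counts in bulk (log2FC 2.81). Retinoid genes were lower in 4 of 11 and higher in 1, RBP4, a retinol carrier, going from 61 to 6 counts (log2FC -3.59) and DHRS3, which reduces retinal, from 1085 to 542 (log2FC -1.42). Of 17 assessed HOX genes 3 were higher and 2 were lower, with HOXB13 at 12 and 187 counts (log2FC 3.47) and HOXD8 at 230 and 61 (log2FC -2.32). Of 22 collagens 4 were higher and 3 were lower, with the basement membrane chain COL4A6 at 10 and 101 counts (log2FC 2.83) and COL18A1 at 18387 and 9937 (log2FC -1.31). Fatty acid and lipid storage genes were higher in 5 of 23 and lower in 2, with the elongase ELOVL6 at 203 and 1223 counts (log2FC 2.16). In the remaining lists the calls were 4 higher and 0 lower of 19 S100 and annexin genes and 2 and 0 of 20 G1 genes. They were 2 and 3 of 20 ABC transporters, 4 and 3 of 16 steroid response genes and 0 and 1 of 10 IGF genes. Metallothioneins and zinc transporters had 1 and 2 of 9, and cancer-testis antigens 2 and 1 of 3. The 2 of 20 higher G1 genes and ABC transporters are near the 8.97% of all assessed genes.

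The largest ratios were found in genes of no single list. Of the 15 higher genes farthest from no change, PTPRM and PTPRD, receptor-type tyrosine phosphatases, and SYT1, a synaptic vesicle calcium sensor, had 0 counts in OVCAR3-CTR and 219, 134 and 103 in OVCAR3-MGPKO. Against the floor of 3 counts in a library these were at least 54.4-fold, 33.3-fold and 25.6-fold higher. PCDH7, a protocadherin, had 27 and 2039 counts (log2FC 5.78), SOX11, a developmental transcription factor, had 72 and 2139 (log2FC 4.46), and SLC6A15, a neutral amino acid transporter, had 16 and 673 (log2FC 4.91). TUBB3, the neuronal tubulin, had 24 and 807 counts (log2FC 4.61), GABRA2, a GABA receptor subunit, had 5 and 356 (log2FC 5.56) and the transcription factor MYB had 5 and 176 (log2FC 4.54). PDE4B, a cAMP phosphodiesterase, had 2 and 205 counts, a ratio of 76.4 with a log2 interval of 4.38 to 9.31, and C4orf19 had 1 and 144 (4.24 to 12.06). With FGFBP1, OSMR, AXIN2 and CRYAB, these make up the 15, of which 9 were also assessed and at least 2-fold higher in OCSC, where SYT1 (0 and 27 counts) was under the count minimum. The 9 include PTPRM (8 and 218 counts), PTPRD (1 and 346) and SOX11 (196 and 2967).

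On the lower side DMGDH, a mitochondrial choline-catabolic enzyme, had 102 counts in OVCAR3-CTR and 0 in OVCAR3-MGPKO, at least 45.6-fold lower against the floor. LAMP3, a lysosomal membrane protein, had 668 and 30 counts (log2FC -4.86), MOV10L1, a helicase of the piRNA pathway, had 132 and 4 (log2FC -5.19) and NIBAN1, a stress-responsive gene, had 4195 and 480 (log2FC -3.55). UNC5B, a netrin receptor, had 751 and 57 counts (log2FC -4.12), EGFL6, a secreted EGF-like protein, had 650 and 50 (log2FC -4.10) and VSIG8 had 112 and 6 (log2FC -4.46). XAGE2, a cancer-testis antigen of a family of close copies, had 184 and 10 counts (log2FC -4.51). With FLG, GLI1, ATF3, DDIT4, PMEPA1, ITGB3 and DUSP4 these are the 15 lower genes farthest from no change, of which 8 were also assessed and at least 2-fold lower in OCSC, where GLI1 (29 and 3 counts) was under the count minimum. The 8 include UNC5B (393 and 49 counts), EGFL6 (1256 and 203) and XAGE2 (185 and 2). LAMP3, DDIT4 and NIBAN1 had OCSC log2FC of 0.25, -0.19 and -0.57.

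Among the 10 genes with the largest absolute increase ACTB had a normalized count of 79421 in OVCAR3-MGPKO and 50059 in OVCAR3-CTR (log2FC 0.67) and GAPDH had 66937 and 48497 (log2FC 0.46), both under the threshold, as were HSP90B1 and the nuclear RNA NEAT1 (log2FC 0.49). TMSB10, which sequesters actin, and TUBA1B, an alpha-tubulin, passed it with log2FC of 1.73 and 1.28, as did HSPA8, CDH6, KRT5 and CALR. The largest absolute decreases were those of MALAT1, RN7SK and SNORD3A, with log2FC of -0.41, -0.35 and -0.63, none past the threshold. The next were EZR (ezrin), which ties actin to the membrane, with 39995 and 20625 counts (log2FC -1.38), EEF1A1 (log2FC -0.63), FTH1 (log2FC -1.15) and AMOTL2, a YAP regulator, with 37958 and 20962 counts (log2FC -1.28). The mitochondrial COX1 (log2FC -0.78), RPS16 (log2FC -0.90) and SLC7A5 (log2FC -2.07) complete the 10. RN7SK, RPPH1, SNORD3A and MALAT1 together held 4.5% of the counts in OVCAR3-CTR bulk and 3.73% in OVCAR3-MGPKO bulk, and genes of mitochondrial DNA held 0.806% and 0.618%. The part of this RNA content in the results was not tested.

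Some of the bulk differences were also present in OCSC. Of the 1107 genes higher in bulk 999 were also assessed in OCSC, and 170 of these (17.0%) were higher there by at least 2-fold, against 3.08% of the 11998 genes assessed in both cultures. Of the 782 lower genes 700 were assessed in OCSC and 129 (18.4%) were lower there, against 3.30%. Opposite calls were found for 39 (3.90%) of the higher and 23 (3.29%) of the lower genes, near those background shares. The median OCSC log2FC was 0.30 for the genes higher in bulk and -0.32 for the lower ones. The share of higher genes also higher in OCSC depended on the count minimum. It was 24.1% with no minimum and 6.8% with one of 200 counts. For the lower genes the share was 16.6% and 18.5%. Shares of all assessed genes at those minimums are not given here. By its labels the OCSC pair shares cell line, genotypes and passage with the bulk pair, but no library. Whether it came from the same clones is not given in the sources used here. The OCSC pair also differs in medium, growth form and depth (22655355 and 22191041 counts), so it is not a replicate.

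Differences also ran along the genome. The RefSeq annotation placed 11621 genes assessed in both cultures on chromosomes 1 to 22 and X. Chromosome 16 had the lowest median log2FC in bulk, -0.34 over 491 genes, with 59 lower and 15 higher, and its OCSC median was -0.30. Chromosomes 8 and 13 had medians of -0.23 in bulk and of -0.28 and -0.26 in OCSC, and chromosome 11 had the highest in bulk, 0.13 (OCSC 0.09). The cultures differed at chromosome 22, which had the lowest OCSC median, -0.36, beside -0.08 in bulk. Across the 23 chromosomes the bulk and OCSC medians had a Pearson correlation of 0.85, and across 376 successive windows of 30 genes one of 0.69, while across single genes it was 0.37. These are descriptions over points that share the 4 libraries. The lowest window, at chr19:36182060-38229695 from ZNF565 to DPF1, had a median of -0.75 with 28 of its 30 genes below 0 (OCSC -0.41). The next, at chr16:3014712-4847288, had one of -0.70 (OCSC -0.34), and the highest, at chr1:148432959-150476566, had one of 0.71 with 12 of 30 genes higher (OCSC 0.38). These windows were picked out after their values were seen. Genome content was not measured, and whether it differs between the cell populations was not tested.

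**Figure D5:**
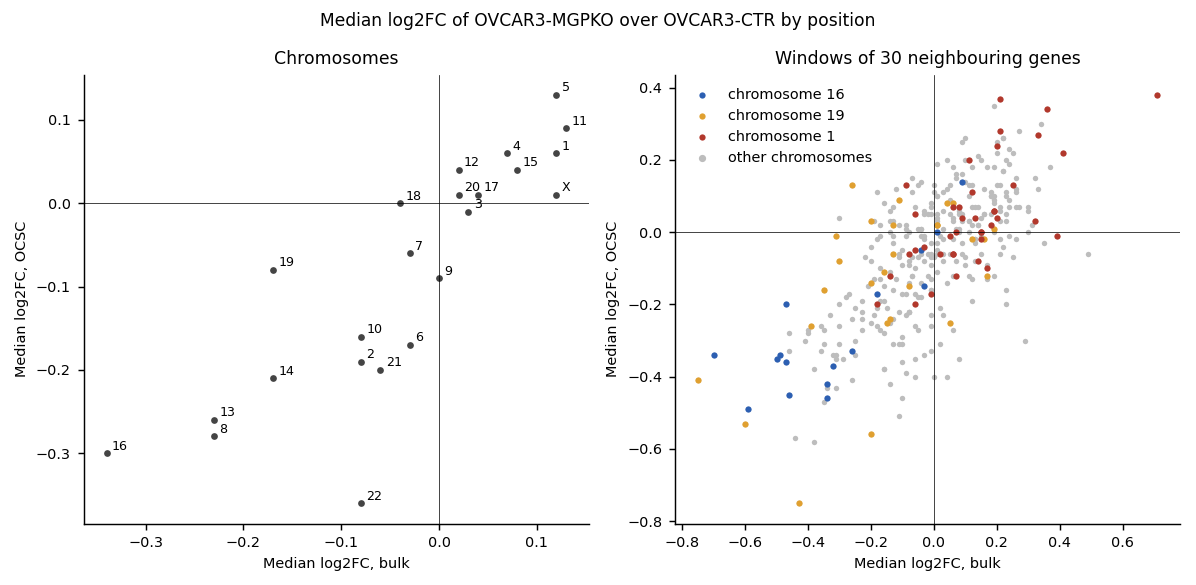
Median log2FC of OVCAR3-MGPKO over OVCAR3-CTR in bulk (horizontal axis) against OCSC (vertical axis) for the 23 chromosomes (left) and for 376 windows of 30 neighbouring genes (right). Chromosome 16 lies low in both cultures, at -0.34 and -0.30, and its windows (blue) lie mostly in the lower left.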

How the data were processed

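RNA-seq of 8 libraries was deposited, and the 2 OVCAR3 bulk libraries, from the labels' genotype and cell subtype, form the comparison. The authors aligned the reads to hg38 with STAR (2.7.5c in the submitters' processing notes) and deposited a raw count of reads per gene for 20339 genes. The strand setting and annotation are not given in the sources used here, and several library kits are named without assignment. The authors also deposited a normalized signal, the count divided by DESeq2's median-of-ratios size factor, which the values recomputed here matched within 0.0001 of the value.

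From the counts, size factors were taken over the 15518 genes above 0 in all 8 libraries, and log2FC was computed with a pseudocount of 1 on normalized counts. Genes needed 50 counts in at least 1 bulk library, and a log2FC of 1 in size was a call. Intervals are at 95%, without the pseudocount, and the floor was 3 counts, which is 0.230 and 0.189 CPM in OVCAR3-CTR and OVCAR3-MGPKO bulk. Named genes were the 15 in each direction with at least 100 normalized counts in the higher library whose interval ends farthest from no change, the 10 in each direction with the largest difference in normalized counts, the study's stemness, EMT and Hedgehog genes and called members of 46 gene lists. Members and lists were chosen with earlier results of these data known, and LOC, LINC and MIR names were passed over. PHGDH, PSPH, JUN, CDKN1A, SMO, GLI2, LEF1, RNF43, STAT2, SESN3, HLA-C and ALDH1A1 were named for their role after their values were seen. So were PTCH1, HHIP, ID4, SMAD6, GGCX, MERTK, IFNB1, FBLN1, PDGFRB, HSP90AB1, HSP90AA1, HSPD1 and ARHGAP9 with its neighbours. The alternatives were edgeR's TMM, CPM, median of ratios within each pair, pseudocounts of 0.5 and 5, count minimums of 0, 10 and 200, stricter thresholds and, added after seeing the data, library totals. Genes were placed with RefSeq (GRCh38.p14) and strands read from GENCODE. Tools were Python 3.11.15, numpy, pandas and scipy 1.17.1, and R 4.3.3 with edgeR 4.0.16 for TMM factors. The functions were tested on simulated data. Values of some genes are not reported here.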

Additional observations from a re-analysis of the deposited data

Results flagged for a closer look

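Of the genes past the 2-fold threshold in opposite directions in bulk and in OCSC (39 higher and 23 lower in bulk), those below are the members of the gene lists or named genes. With 1 library per genotype in each culture, none of these opposite directions was tested. KRT5, a basal keratin, had a log2FC of OVCAR3-MGPKO over OVCAR3-CTR of 2.23 in bulk (95% counting interval 2.17 to 2.28) and -1.41 in OCSC (-1.45 to -1.36). Its normalized count was 4843 in CTR bulk, 22673 in MGPKO bulk, 12200 in CTR OCSC and 4599 in MGPKO OCSC, so the low values were in CTR bulk and MGPKO OCSC. The keratin KRT4 had 2077, 4471, 471 and 117 in the same order (log2FC 1.11 and -2.0).

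The BMP target ID1 had normalized counts of 2274 and 8310 in bulk and 2932 and 1239 in OCSC (log2FC 1.87 and -1.24). The Notch target HEY2 had a log2FC of 1.77 in bulk and -1.31 in OCSC, and the receptor kinase EPHB3 had 1.27 and -1.88. KIT had 10 and 57 counts in bulk and 688 and 281 in OCSC (log2FC 2.02 and -1.38). The proteases PLAT and KLK10 had log2FC of 2.97 and 1.55 in bulk and of -1.93 and -1.26 in OCSC. RARRES2 (chemerin) had 2.38 and -1.53, and S100A9, a calcium-binding protein, had 1.09 and -2.45 with 22 and 64 counts in bulk. CA12, a carbonic anhydrase, went the other way, with a log2FC of -1.27 in bulk and 1.35 in OCSC.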

How the results depend on the processing

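With 1 library for each genotype, no replicate could be left out. No paired analysis was possible because the labels number no replicates and the bulk comparison holds 1 library a group. Each alternative changed 1 choice, except that CPM plus 1 also made the pseudocount weigh more. The 1107 higher and 782 lower genes became 3189 and 2100 with no count minimum, 2066 and 1259 with a minimum of 10 counts, and 530 and 486 with one of 200. They became 522 and 335 at a log2FC of 1.5, 270 and 142 at one of 2, and 602 and 485 where the whole counting interval had to lie beyond 2-fold. With CPM the lower genes numbered 520, and with library totals and the pseudocount as before, an alternative chosen after seeing the data, 603. The share of genes higher in bulk that were also higher in OCSC, 17.0%, became 14.6% with CPM, 24.1% with no count minimum, 23.4% with a minimum of 10, 6.8% with one of 200 and 14.2% with the whole interval beyond 2-fold. The share of lower genes also lower in OCSC, 18.4%, became 22.7% at a log2FC of 2. The matching shares of all assessed genes under these alternatives are not given here. TMM, the median of ratios within each pair and pseudocounts of 0.5 and 5 kept these counts within 1.5 times. List medians close to 0 changed sign with CPM, among them those of the BMP and TGF-beta list (-0.07 to 0.07) and the EMT list (-0.09 to 0.05). The median of the amino acid response list ran from -1.84 to -1.54 and that of the interferon list from 1.27 to 1.51, while that of the matrix protease list ran from 0.23 to 0.92. The depth leaves genes under 50 counts in both libraries unjudged, 8004 of the 20339 in the table.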

Other observations

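Gene families grouped by name after their values were seen add to the picture in bulk. Of 19 assessed tubulin genes 7 were higher in OVCAR3-MGPKO and 2 were lower (median log2FC 0.60), with TUBA1A at 112 and 1691 counts in OVCAR3-CTR and OVCAR3-MGPKO (log2FC 3.48) and TUBB6 at 733 and 2923 (log2FC 1.57). Tubulin genes are close copies, so reads could be split among them. Of 19 cytosolic aminoacyl-tRNA synthetases, which charge tRNAs for translation, 6 were lower and 0 were higher (median log2FC -0.48), namely AARS1, WARS1, YARS1, SARS1, GARS1 and CARS1, whereas of 15 mitochondrial ones 0 were lower and 0 higher (median 0.01). AARS1, WARS1, SARS1 and GARS1 are also members of the amino acid response list.

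Of 49 assessed replication-dependent histone genes 9 were higher and 0 were lower (median log2FC 0.22), H3C13 among them with 221 and 1255 counts (log2FC 2.08). Ribosomal protein genes had a median log2FC of -0.33 in bulk and 0.33 in OCSC over 80 genes, and genes of mitochondrial DNA had -0.33 and 0.75 over 13. GLDC, the glycine cleavage enzyme, had 521 and 5594 counts in bulk, a log2FC of 3.0 (2.87 to 3.13), and 2303 and 3311 in OCSC (log2FC 0.43).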
